A study of Mus musculus with 12 samples.

Results

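The comparison set the thoracic aorta of mice given minoxidil for 2 weeks against that of untreated mice. It used the 4 libraries labelled as on treatment for 2 weeks and the 4 labelled control, 8 of the 12 libraries of the study. All mice were C57BL/6J and Eln+/-, so that the controls, too, carried 1 functional copy of the gene for elastin, the protein of the elastic lamellae of large arteries. Controls had ordinary drinking water, and treated mice had minoxidil in the water from 2.5 months of age to 3 months, the labelled age of both groups at collection. The tissue was the aorta from the left subclavian artery to the diaphragm, tissues were kept in a preservative and their RNA was extracted together, and the labels do not give sex, cage or the hour of collection. They list 4 samples a group without naming the animals, so the p-values measure the spread between these samples, which may in part be technical. The remaining 4 libraries, from mice taken off the drug for 1 week, entered only the estimate of spread that all 12 libraries share.

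Minoxidil is a prodrug that sulfotransferases activate in tissue. The sulfated form opens ATP-sensitive potassium channels, which in vascular smooth muscle are built from a pore subunit (Kcnj8) and a sulfonylurea receptor (Abcc9), and potassium leaving through them hyperpolarizes the cell and lowers calcium entry and tone. The aortic wall mixes smooth muscle with endothelium, adventitial fibroblasts, macrophages and nerve fibres, and in such bulk tissue fewer cells of a type and less RNA per cell cannot be told apart.

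The 8 libraries held 41524501 (on-drug 3) to 109423243 (on-drug 1) counts. Pearson correlations of log2 CPM between libraries of a group were 0.991 to 0.994, and every pair differed by far more than sampling noise, with a chi-square per degree of freedom of at least 25.8. The first principal component of the 8 libraries, with 36.9% of the variance, put the controls at -22.7 to -8.33 and the on-drug libraries at 4.60 to 19.98, without overlap. Levels are given as CPM, counts relative to the library total after TMM scaling (trimmed mean of M values), with SD over 4 libraries. Changes are log2 fold changes (on drug minus control) with SE, from edgeR's quasi-likelihood test, and a gene was called at a Benjamini-Hochberg adjusted p below 0.05 over all genes tested. A value in brackets after a gene is its log2 fold change ± SE. Unless a sentence says otherwise, each gene said to rise or fall kept its call when any 1 of the 8 libraries was left out. For a gene that did not, the text gives the libraries whose absence, 1 at a time, ended the call and the range of the adjusted p over the 8 fits with 1 library left out. Beside a count of a gene list stand the libraries whose absence, 1 at a time, moved it by more than 1.5 times, where it was above 0. The count under 2 other scalings, library size alone and removal of the trend of the counts on gene length, is given there where it moved as far.

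Of 24660 genes tested, 1018 (4.13%) were called higher on drug and 725 (2.94%) lower. The counts of gene lists below stand against these shares. Immediate-early genes (3.45% each way) and chemokines and cytokines (4.08% and 2.04%), for instance, lay near them. Among protein-coding genes of the highest of 4 equal classes by mean level, 9.95% were called higher and 6.19% lower. Most of the changes were small. The median of the called genes was 0.42 for those higher and -0.36 for those lower, 64 rose and 75 fell at least 2-fold, and the median of all genes was 0.005. Both counts depended on single libraries. Without control 3 there were 541 higher and 365 lower, without on-drug 3 472 and 331, and without on-drug 4 595 and 323. Without on-drug 2, 665 were higher, and 500 lower. Other libraries moved the counts upward, to 1330 higher and 960 lower without on-drug 1 and to 1214 and 934 without control 1. Higher genes made up 58.4% of the calls, 72.8% with library size as the only scaling and 42.8% once the trend of the counts on gene length was removed in each library. Matrix genes, with 71 of 236 tested called higher and 7 lower, and heat-shock chaperones, with 1 of 49 higher and 24 lower, are counted here and not described further as lists. Single libraries or scalings moved these counts too, to 47 higher without on-drug 3, and 4 lower without control 3 or on-drug 3 or 4, and 11 lower without control 4, and 12 lower with the length trend removed for matrix genes and to 2 higher without on-drug 1, and 13 lower without on-drug 3 for chaperones. Some called matrix genes also count in lists described below. Among them are Ltbp2, Ltbp3, Ltbp4 and Thbs1 (TGF-beta), Bmp1 (BMP), Podn, Gpc3 and Mfap5 (fibroblast), Comp and Col2a1 (calcification) and Ogn (growth factor ligands).

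**Figure D1:**
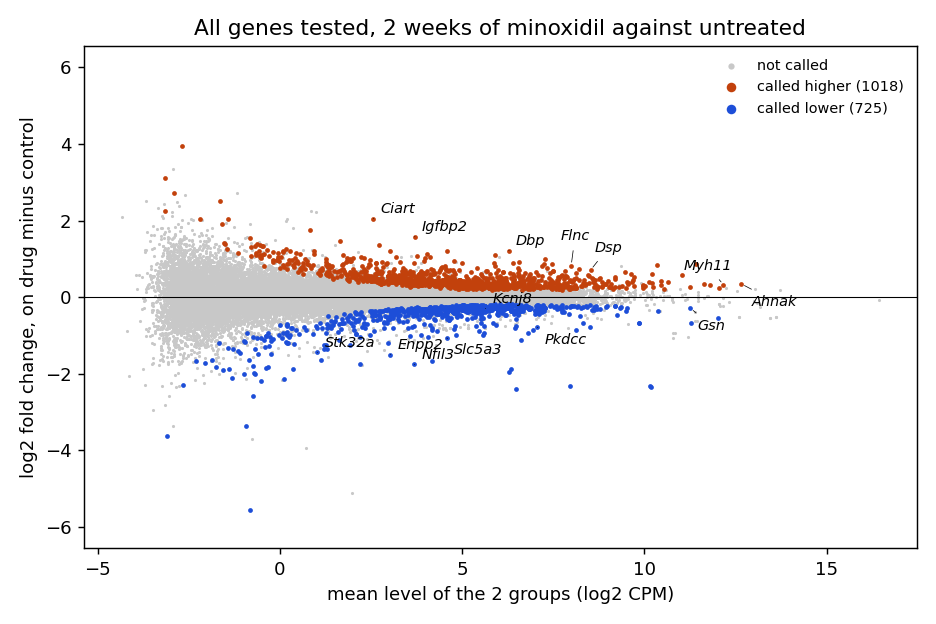
Each point is 1 of the 24660 genes tested, with the mean level of both groups on the x axis (log2 CPM) and the log2 fold change, on drug minus control, on the y axis. The 1018 genes called higher (orange) and the 725 called lower (blue) lie mostly within 1 log2 unit of 0. Ciart, Igfbp2, Enpp2 and Nfil3 stand out from the rest, and the blue points near or below -2 at levels above 5 are the heat-shock genes Dnajb1, Hspa1a, Hspa1b and Hspa1l and 2 gene models without a name.

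The channel that minoxidil sulfate opens was examined first. Its pore subunit Kcnj8 (ENSMUSG00000030247.9, GRCm38 chromosome 6, 142564837 to 142571614, minus strand) was measured at 63.3, 55.3, 52.3 and 49.1 CPM in the 4 control libraries and 41.9, 43.7, 48.5 and 45 CPM in the 4 on-drug libraries. All 4 on-drug values were below the lowest control. Kcnj8 fell from 55 ± 6.09 to 44.8 ± 2.8 CPM (log2 fold change -0.30 ± 0.08, edgeR adjusted p = 0.0369, lost without control 1, 2 or 3 or on-drug 1, 2 or 4, edgeR adjusted p 0.0187 to 0.0894). Library size as the only scaling also ended the call (edgeR adjusted p = 0.116). Kcnj8 is also a pericyte marker, and summed pericyte markers were 3038 to 3340.3 CPM in untreated and 3707 to 4272 CPM in treated aortas. Members of that list such as Notch3, Heyl and Anpep also count in other lists, so the sum is not a measure of pericytes alone. The part of cell composition in the fall of Kcnj8 was not tested. The receptor subunit Abcc9 (chromosome 6, 142587862 to 142702315, minus strand), which lies beside Kcnj8, was at 473 ± 35.1 CPM in untreated and 488 ± 21.5 CPM in treated aortas, and the groups overlapped (log2 fold change 0.04 ± 0.06, edgeR adjusted p = 0.741). The subunits of the pancreatic channel, Kcnj11 and Abcc8, were low, at 1.54 ± 0.114 CPM in untreated and 1.54 ± 0.166 CPM in treated aortas for Kcnj11 and 0.372 ± 0.0754 CPM in untreated and 0.44 ± 0.182 CPM in treated aortas for Abcc8 (edgeR adjusted p = 0.998 and 0.793). Sult1a1, a sulfotransferase that activates minoxidil, was at 52 ± 5.02 CPM in untreated and 58.4 ± 8.77 CPM in treated aortas and did not pass (log2 fold change 0.17 ± 0.09, edgeR adjusted p = 0.307).

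Among named genes outside those 2 lists that averaged 1 or more on the log2 CPM scale and whose groups did not overlap, the largest rise was that of Ciart, a repressor of the circadian clock (ENSMUSG00000038550.10, chromosome 3, 95878503 to 95882251, minus strand). Ciart was at 1.45, 3.01, 2.76 and 2.06 CPM in the 4 control libraries and 7.68, 6.43, 8.09 and 15.9 CPM in the 4 on-drug libraries. Every on-drug value was above every control, and on-drug 4 stood above the other 3. The fitted change was 2.05 ± 0.34 (edgeR adjusted p = 0.00733). The next was Igfbp2, a secreted protein that binds insulin-like growth factors (ENSMUSG00000039323.18, chromosome 1, 72824503 to 72852474, plus strand), at 7.9, 6.06, 4.89 and 7.15 CPM in the 4 control libraries and 18.4, 16.6, 26.5 and 16.3 CPM in the 4 on-drug libraries. Its groups did not overlap either (log2 fold change 1.58 ± 0.23, edgeR adjusted p = 0.00334). Other large rises came from genes of varied roles. Iqgap3 (1.21 ± 0.21) is a scaffold of the cell cortex found in dividing cells, Dgkg (1.13 ± 0.19) a kinase that removes the second messenger diacylglycerol, Coro2a (1.13 ± 0.23) an actin-binding protein of the coronin family, Islr2 (1.10 ± 0.22) a leucine-rich membrane protein of neurons and Rasl10b (1.06 ± 0.20) a small GTPase. Tcap, the cap protein of the giant muscle protein titin, rose from 38.6 ± 4.16 to 82 ± 17.6 CPM (log2 fold change 1.09 ± 0.15, edgeR adjusted p = 0.00212), and its values are set beside other skeletal muscle genes further on. The smooth muscle microRNA genes Mir143 (1.47 ± 0.24) and Mir145a (1.21 ± 0.24) rose as well. Their hairpins are 63 and 70 bases long, the libraries measure fragments of longer RNA over them, and mature microRNA was not measured.

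Under the same limits on list, level and overlap, the largest fall was that of Nfil3, a transcription factor that represses clock output genes (ENSMUSG00000056749.7, chromosome 13, 52967209 to 52981073, minus strand). Nfil3 was at 33.6, 17.6, 16.2 and 12.3 CPM in the 4 control libraries and 6.6, 6.66, 6.45 and 3.88 CPM in the 4 on-drug libraries. Control 1 was the highest, and all on-drug libraries lay below all controls (log2 fold change -1.76 ± 0.31, edgeR adjusted p = 0.0104). Enpp2, which encodes autotaxin, the secreted enzyme that makes lysophosphatidic acid (ENSMUSG00000022425.15, chromosome 15, 54838898 to 54920146, minus strand), was at 14.2, 10, 12.3 and 11.7 CPM in the 4 control libraries and 4.79, 2.78, 5.42 and 4.02 CPM in the 4 on-drug libraries. The highest on-drug value lay below the lowest control (log2 fold change -1.50 ± 0.18, edgeR adjusted p = 0.000393). Slc5a3, which carries the osmolyte myo-inositol into cells (ENSMUSG00000089774.2, chromosome 16, 92058322 to 92087473, plus strand), fell from 32.4 ± 4.29 to 15.4 ± 2.13 CPM (log2 fold change -1.07 ± 0.12, edgeR adjusted p = 0.000162). Cdkn2b (-1.25 ± 0.17) encodes an inhibitor of the cell cycle kinases CDK4 and CDK6, Egr2 (-1.20 ± 0.21) an immediate-early zinc finger factor, Nfe2l3 (-1.04 ± 0.15) a stress-related leucine zipper factor and Stac (-1.11 ± 0.22) an adaptor of voltage-gated calcium channels. Stk32a (-1.45 ± 0.16), a serine/threonine kinase, and the membrane protein Tmem26 (-1.36 ± 0.18) fell as well, as did Rbm12b2 (-1.66 ± 0.31) and its close copy Rbm12b1 (-0.86 ± 0.10). Reads that map to several places were counted at each, so the pair may share reads. Npas2, a partner of the clock activator BMAL1, fell too (-0.99 ± 0.25, lost without control 2 or on-drug 3 or 4, edgeR adjusted p 0.0133 to 0.0887). Snord14e lies wholly inside the heat-shock gene Hspa8, shares 90 of its 90 bases with it, and cannot be told apart from it (-1.74 ± 0.45, lost without control 1 or on-drug 1, 2, 3 or 4, edgeR adjusted p 0.0246 to 0.125).

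**Figure D2:**
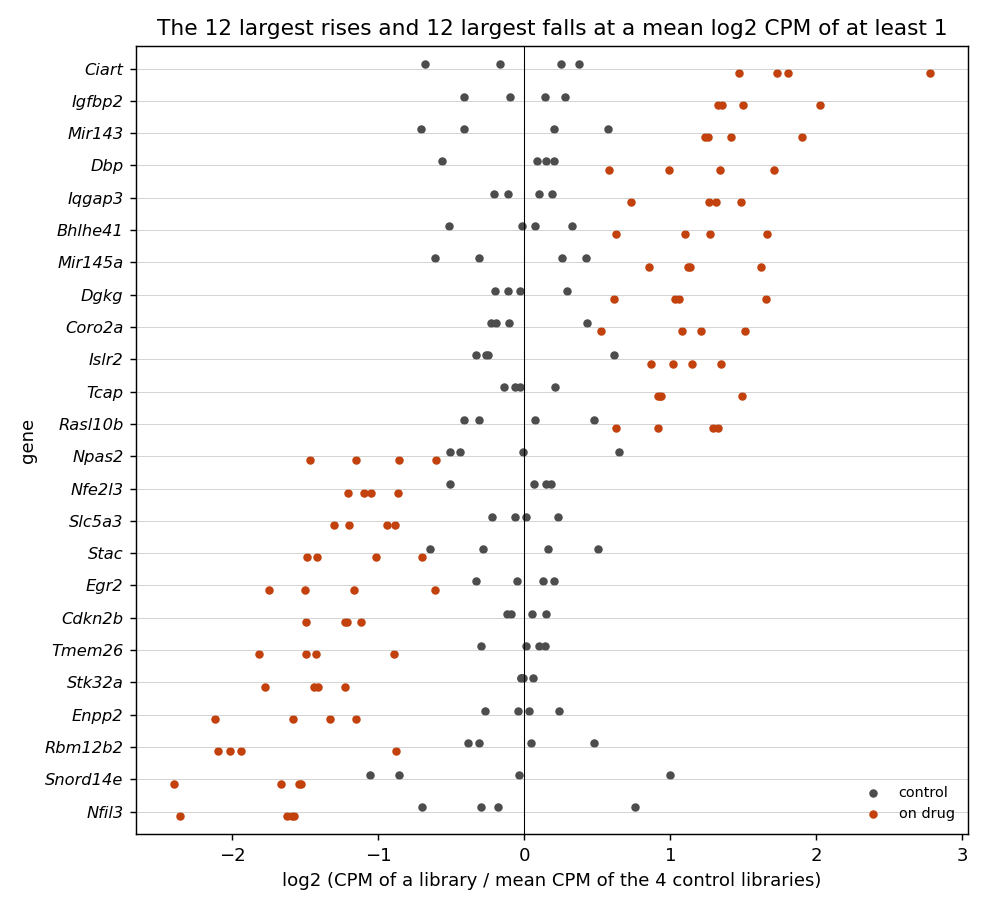
For the 12 largest rises and the 12 largest falls under the limits on list, level and overlap given above, each point is 1 library (grey control, orange on drug), placed by the log2 ratio of its CPM to the mean of the 4 controls. By that choice no gene shows overlap between groups, while single libraries stand off, such as on-drug 4 for Ciart, control 1 for Nfil3 and on-drug 3 for Rbm12b2.

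The genes with the smallest adjusted p in each direction were chosen under the same limits on list, level and overlap. They held Stk32a, Rbm12b1, Slc5a3, Tmem26 and Cdkn2b, given above, and those that follow. Dsp, which encodes desmoplakin, the protein that ties intermediate filaments to desmosomes (ENSMUSG00000054889.9, chromosome 13, 38151328 to 38198577, plus strand), was at 308, 292, 258 and 262 CPM in the 4 control libraries and 441, 461, 457 and 469 CPM in the 4 on-drug libraries. The 4 on-drug values lay within a narrow band well above the controls (log2 fold change 0.71 ± 0.06, edgeR adjusted p = 4.53e-06). Ccnd1, cyclin D1, which drives entry into the cell cycle (ENSMUSG00000070348.5, chromosome 7, 144929931 to 144939925, minus strand), was at 22, 23.2, 22.7 and 23.5 CPM in the 4 control libraries and 37.4, 38.5, 36.7 and 37.1 CPM in the 4 on-drug libraries. Here both groups were tight and far apart (log2 fold change 0.71 ± 0.07, edgeR adjusted p = 1.91e-05). Ccnd1 shares 1100 of its 4709 exonic bases with Oraov1 on the other strand, which this counting without strand cannot separate. Flnc, the actin cross-linker filamin C of muscle (chromosome 6, 29433256 to 29461883, plus strand), rose from 184 ± 22.5 to 324 ± 37.2 CPM (log2 fold change 0.82 ± 0.09, edgeR adjusted p = 6.34e-05). Eef2k (0.71 ± 0.07) encodes the kinase that slows translation elongation, Por (0.66 ± 0.07) the electron donor of cytochrome P450 enzymes, Myof (0.58 ± 0.06) the membrane repair protein myoferlin, Myo18b (0.68 ± 0.08) a myosin of muscle, Galnt16 (0.68 ± 0.07) an enzyme that starts O-linked glycans and Ccdc88c (1.06 ± 0.11) a regulator of Wnt signalling. All 6 had groups without overlap, as the choice required. The gene model Apol7d rose from 108 ± 8.32 to 197 ± 23.4 CPM (0.87 ± 0.08). It is annotated as antisense on chromosome 1 and shares 292 of 2091 exonic bases with fibronectin, Fn1, which rose by 0.86 ± 0.07, so that reads of the 2 genes cannot be told apart.

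In the other direction, Pkdcc, a secreted tyrosine kinase of skeletal growth (ENSMUSG00000024247.14, chromosome 17, 83215292 to 83225070, plus strand), was at 156, 168, 171 and 184 CPM in the 4 control libraries and 88, 97.5, 108 and 98.9 CPM in the 4 on-drug libraries. By the same choice, every on-drug library was below every control (log2 fold change -0.79 ± 0.07, edgeR adjusted p = 4.53e-06). Ccdc117, a gene for a coiled-coil protein, fell from 57.5 ± 7.05 to 30.9 ± 1.5 CPM (log2 fold change -0.89 ± 0.09, edgeR adjusted p = 1.91e-05). Ppp1r3c (-0.73 ± 0.08) encodes a glycogen-targeting subunit of protein phosphatase 1, Jmjd6 (-0.57 ± 0.07) a hydroxylase that acts on splicing factors and histones, and Zmym1 (-0.81 ± 0.10) a zinc finger protein. Zmym1 shares 1709 of 4164 exonic bases with a gene model on the other strand, and its value is uncertain for that reason.

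Among called genes with the highest level per kilobase of exon, those higher on drug included structural genes of the wall. Ahnak, a giant scaffold protein under the plasma membrane, rose from 5681 ± 415 to 7219 ± 127 CPM (log2 fold change 0.35 ± 0.06, edgeR adjusted p = 0.00193). Myh11, the myosin heavy chain of smooth muscle, rose from 4083 ± 375 to 5108 ± 244 CPM (log2 fold change 0.32 ± 0.07, edgeR adjusted p = 0.00788). The 6 other abundant rises were less secure. They were the intermediate filament protein vimentin (Vim, 0.22 ± 0.06), the secreted glycoprotein Fstl1 (0.26 ± 0.07), the caveolar coat protein Cav1 (0.23 ± 0.06), the calcium-binding protein S100a6 (0.25 ± 0.06), the adhesion molecule Mcam (0.36 ± 0.09) and the mitochondrial transfer RNA gene mt-Tl1 (0.41 ± 0.11). Each lost its call without control 1 or 2 or on-drug 2 or 3 and some of them also without control 3 or on-drug 1 or 4, with edgeR adjusted p of 0.00195 to 0.117 over these fits. Among the abundant genes that were lower, gelsolin (Gsn), which severs actin filaments and is also a fibroblast marker, fell from 2695 ± 180.4 to 2206 ± 95.5 CPM (log2 fold change -0.29 ± 0.06, edgeR adjusted p = 0.00733). Tpt1, a translationally controlled protein, was at 706, 743, 927 and 855 CPM in the 4 control libraries and 693, 687, 636 and 642 CPM in the 4 on-drug libraries. Its groups were separated by a narrow margin, and its fall was less secure (-0.28 ± 0.07, lost without control 3 or 4 or on-drug 3 or 4, edgeR adjusted p 0.00748 to 0.0993). The 6 others were ribosomal protein genes, described with their list.

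Of 26 circadian clock genes and outputs tested, 9 were called higher and 3 lower. The counts became 1 lower without on-drug 4. In the clock, CLOCK or NPAS2 pairs with BMAL1 (Arntl) to activate genes through E-boxes, and the PER and CRY proteins that result repress this pair. Further loops run through REV-ERB (Nr1d1) and through D-boxes, which the DBP, TEF and HLF factors activate and NFIL3 represses. The 9 calls that were higher held Ciart, given above, and other repressors and outputs. Per3 rose from 22.1 ± 3.44 to 41.4 ± 9.48 CPM (log2 fold change 0.90 ± 0.14, edgeR adjusted p = 0.00379), Cry2 from 16.1 ± 2.67 to 26.3 ± 4.44 CPM (log2 fold change 0.71 ± 0.13, edgeR adjusted p = 0.00448) and Nr1d1 from 59.1 ± 7.29 to 79.8 ± 8.44 CPM (log2 fold change 0.43 ± 0.09, edgeR adjusted p = 0.00886). Bhlhe41 (DEC2), which represses E-box genes, was at 10.2, 18.2, 14.4 and 15.3 CPM in the 4 control libraries and 22.4, 31.2, 35.1 and 45.9 CPM in the 4 on-drug libraries. The groups did not overlap (log2 fold change 1.21 ± 0.23, edgeR adjusted p = 0.0136). The output factor Dbp was at 31.6, 49.8, 52 and 53.8 CPM in the 4 control libraries and 70, 92.8, 118 and 153 CPM in the 4 on-drug libraries. No on-drug value reached down to the controls, although the on-drug values spread widely (log2 fold change 1.21 ± 0.25, edgeR adjusted p = 0.0199, lost without control 2 or 3 or on-drug 3, edgeR adjusted p 0.00625 to 0.0648).

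The 3 calls that were lower were Clock, Npas2 and Nfil3. Clock fell from 145 ± 7.46 to 115 ± 13.4 CPM (log2 fold change -0.33 ± 0.08, edgeR adjusted p = 0.016, lost without on-drug 4, edgeR adjusted p 0.00924 to 0.0593), beside the falls of Npas2 and Nfil3 given above. Arntl, chosen like Per1, Per2, Cry1, Nr1d1, Bhlhe40, Hlf and Tef after its values were seen, was at 19.1, 13.9, 14.9 and 20.8 CPM in the 4 control libraries and 9.63, 13.1, 9.12 and 5.2 CPM in the 4 on-drug libraries. Its on-drug values lay below all controls, but the difference missed the threshold (log2 fold change -0.90 ± 0.25, edgeR adjusted p = 0.0577). Per2 likewise had non-overlapping groups and missed it (log2 fold change 0.46 ± 0.13, edgeR adjusted p = 0.0561), while Per1 (0.34 ± 0.19, edgeR adjusted p = 0.333) and Cry1 (-0.16 ± 0.14, edgeR adjusted p = 0.573) did not separate. The other 3 genes called higher were less secure. Bhlhe40 (0.74 ± 0.17, lost without control 4 or on-drug 4, edgeR adjusted p 0.00099 to 0.0598) rose, Hlf (0.61 ± 0.16, lost without control 1, 2 or 4 or on-drug 2, 3 or 4, edgeR adjusted p 0.00244 to 0.105) rose and Tef (0.54 ± 0.14, lost without control 1, 2, 3 or 4 or on-drug 2 or 3, edgeR adjusted p 0.0159 to 0.102) rose. With the summed skeletal muscle genes as a covariate, 5 clock genes were called higher and 1 lower. The hour of collection is not in the labels, and its part in these changes was not tested.

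**Figure D3:**
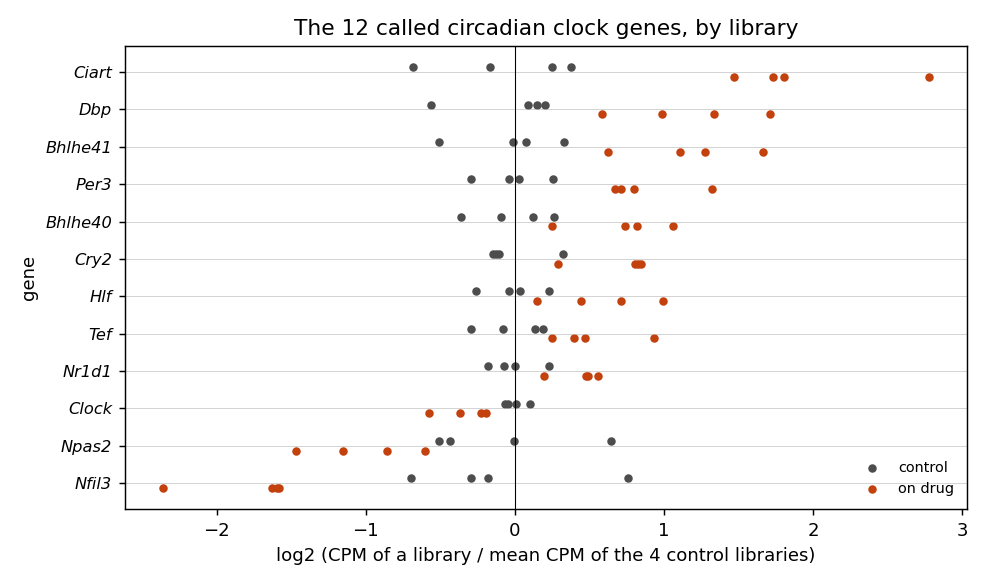
The 12 called clock genes, with each library as a point (grey control, orange on drug) at the log2 ratio of its CPM to the control mean. On-drug 4 is the highest library for Ciart, Dbp, Bhlhe41, Per3, Hlf and Tef and the lowest for Nfil3, Npas2 and Clock, and the 2 groups overlap for Cry2, Bhlhe40, Hlf and Nr1d1.

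Promoter windows of 3 of the risen genes are shown because they hold letters through which the clock loops are known to act. The 3 were thus picked by both the rise and the match. Tef, also called higher, holds an E-box and is not shown, while Cry1 and Per1 hold an E-box and were not called. A link between the letters and the rises was not tested. The windows run from 250 bases before to 50 after the annotated start (RefSeq, GRCm38.p6), and entries were found for 20 of the 26 clock genes tested. On either strand, the E-box CACGTG occurs in 7.15% of all 32851 windows and the D-box TTATGNAA in 3.38%, and the 2 motifs do not overlap. Among the clock genes 5 hold an E-box (Bhlhe41, Ciart, Cry1, Per1 and Tef) and 3 a D-box (Noct, Per1 and Per3). These are counts of genes with a match in any of their windows, 28 in all, and are not comparable with the shares per window. Ciart (chr3:95882179-95882478, minus strand) holds 3 E-boxes, which begin 116, 58 and 44 bases before the start. Bhlhe41 (chr6:145865371-145865670, minus strand) holds 1, 153 bases before it, and Per3 (chr4:151044616-151044915, minus strand) holds 2 D-boxes, 205 and 158 bases before it. Capitals mark the motif, 5′ to 3′ on the gene's strand.
Ciart: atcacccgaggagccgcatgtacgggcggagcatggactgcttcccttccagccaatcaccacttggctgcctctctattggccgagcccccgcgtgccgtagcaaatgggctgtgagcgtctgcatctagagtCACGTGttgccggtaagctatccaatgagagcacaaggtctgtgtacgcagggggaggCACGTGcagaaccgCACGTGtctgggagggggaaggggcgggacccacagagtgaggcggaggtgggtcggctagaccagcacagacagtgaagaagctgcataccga
Bhlhe41: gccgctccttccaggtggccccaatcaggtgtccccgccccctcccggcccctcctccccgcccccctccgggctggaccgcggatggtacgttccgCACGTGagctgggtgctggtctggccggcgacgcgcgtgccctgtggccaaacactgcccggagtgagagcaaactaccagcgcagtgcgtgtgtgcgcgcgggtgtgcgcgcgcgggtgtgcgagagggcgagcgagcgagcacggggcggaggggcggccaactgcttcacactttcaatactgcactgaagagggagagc
Per3: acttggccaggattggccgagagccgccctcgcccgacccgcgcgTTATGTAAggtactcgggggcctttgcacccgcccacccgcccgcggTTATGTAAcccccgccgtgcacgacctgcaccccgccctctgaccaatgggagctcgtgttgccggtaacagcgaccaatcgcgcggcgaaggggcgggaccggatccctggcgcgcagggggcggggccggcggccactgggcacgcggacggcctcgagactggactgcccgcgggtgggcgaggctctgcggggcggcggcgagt

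A match of letters is a description of these windows and was not tested against binding.

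Of 26 other potassium channel genes of smooth muscle 0 were higher and 3 lower. Kcne4, a subunit that restrains voltage-gated channels, fell from 35.3 ± 2.93 to 21 ± 3.77 CPM (log2 fold change -0.75 ± 0.10, edgeR adjusted p = 0.000642), and the M-type channel Kcnq5 fell by 0.50 (SE 0.11). The voltage-gated channel Kcna2 (-0.63 ± 0.17, lost without control 1 or 3 or on-drug 2, 3 or 4, edgeR adjusted p 0.0217 to 0.111) fell. The members with the highest level per kilobase, Kcnab1 (0.03 ± 0.07) and Kcnmb1 (0.14 ± 0.06), did not pass (edgeR adjusted p = 0.826 and 0.172).

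Among genes of calcium entry, storage and removal 8 of 41 were higher and 3 lower. These counts became 5 higher without on-drug 2 or 3, and 1 lower without on-drug 3 or 4, and 5 lower without control 4, and 5 higher and 5 lower with the length trend removed, and 1 lower with library size alone. Those higher included 2 pumps that clear calcium from the cytosol. The plasma membrane pump Atp2b4 rose from 167 ± 10.9 to 235 ± 10.8 CPM (log2 fold change 0.49 ± 0.06, edgeR adjusted p = 0.000105), and Atp2a3, the SERCA3 pump of the endoplasmic reticulum, rose from 43.1 ± 4.36 to 75.5 ± 12 CPM (log2 fold change 0.81 ± 0.10, edgeR adjusted p = 0.00036). The release channel Itpr3 rose as well (0.60 ± 0.08). Phospholamban (Pln), which restrains the SERCA pump, fell from 4.16 ± 0.386 to 2.58 ± 0.632 CPM (log2 fold change -0.68 ± 0.16, edgeR adjusted p = 0.0137). A large share of the exonic bases of Pln (59.6%) are shared with a gene model on the other strand. The sodium-calcium exchanger Slc8a1 (-0.21 ± 0.06, lost without on-drug 2, 3 or 4, edgeR adjusted p 0.016 to 0.0804) fell, and the entry channel Trpc1 (-0.26 ± 0.07, lost without control 2 or 3 or on-drug 3 or 4, edgeR adjusted p 0.0106 to 0.0923) fell. Library size as the only scaling ended both calls (edgeR adjusted p = 0.139 and 0.0989). Of the genes of chloride, sodium and acid transport 3 of 27 were higher and 0 lower (1 higher without control 3 or on-drug 2, 3 or 4, and 5 higher without control 1 or on-drug 1), with Fxyd5, a regulator of the sodium pump, at 0.43 ± 0.07.

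Contractile and cytoskeletal genes of smooth muscle tended to be higher. Of 31 contractile genes 7 rose and 1 fell, and the median log2 fold change was 0.08. Other fits gave 0 lower without control 3 or on-drug 3 or 4, and 0 lower with library size alone. Synpo2, an actin-bundling protein of the Z-disc, rose from 396 ± 32.4 to 524 ± 15.1 CPM (log2 fold change 0.40 ± 0.06, edgeR adjusted p = 0.000803), the gamma actin of smooth muscle Actg2 from 81.7 ± 9.01 to 119.8 ± 14.4 CPM (log2 fold change 0.55 ± 0.09, edgeR adjusted p = 0.00211) and the intermediate filament gene Synm by 0.39 ± 0.07. The 2 most abundant members per kilobase did not pass, Acta2 at 0.22 ± 0.08 (edgeR adjusted p = 0.0909) and Myl9 at -0.02 ± 0.06 (edgeR adjusted p = 0.904). The 1 call that was lower was Filip1l (-0.34 ± 0.08, lost without control 3 or on-drug 3 or 4, edgeR adjusted p 0.0103 to 0.0639). Summed levels of the contractile list were 46387 to 50092 CPM in untreated and 50436 to 54479.8 CPM in treated aortas.

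Among regulators of the actin cytoskeleton 10 of 47 were higher and 0 lower, and 37 had a positive log2 fold change. The count was 2 to 6 higher without control 2, 3 or 4 or on-drug 2, 3 or 4, and 17 higher without on-drug 1. The focal adhesion proteins vinculin (Vcl, 0.37 ± 0.06) and alpha-actinin 1 (Actn1, 0.35 ± 0.06) rose. The formin Diaph1 rose (0.29 ± 0.06, lost without on-drug 3, edgeR adjusted p 0.00475 to 0.0523). These are long genes, with a median exonic length of 5390 bases in the list, and after removal of the length trend 4 were called higher. Vcl shares 39.9% of its exonic bases with Ap3m1 on the other strand. The related regulators of calcineurin, myocardin and SRF split, with 6 of 29 higher and 2 lower. The counts became 2 to 3 higher without control 3 or on-drug 2, 3 or 4, and 0 to 1 lower without control 3 or on-drug 1, 2 or 4, and 0 lower with library size alone. The class IIa histone deacetylase Hdac7 (0.36 ± 0.08) and the LIM protein Fhl2 (0.44 ± 0.10) rose. The muscle transcription factor Mef2c fell from 166 ± 24.3 to 128 ± 3.89 CPM (log2 fold change -0.38 ± 0.09, edgeR adjusted p = 0.0142), with groups that overlap (lost without on-drug 4, edgeR adjusted p 0.000484 to 0.0502).

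Genes that set vascular tone changed in both directions. Of 21 vasoactive peptides and renin-angiotensin genes 5 were higher and 3 lower. These counts became 2 to 3 higher without control 2, 3 or 4 or on-drug 1, 3 or 4. Endothelin-1 (Edn1), a strong vasoconstrictor peptide of endothelium (ENSMUSG00000021367.7, chromosome 13, 42301270 to 42307989, plus strand), was at 10.4, 9.32, 11.4 and 14.2 CPM in the 4 control libraries and 6.69, 8.13, 6.73 and 8.65 CPM in the 4 on-drug libraries. The highest on-drug value was below the lowest control (log2 fold change -0.58 ± 0.12, edgeR adjusted p = 0.00783). Ece1, the protease that cuts its precursor to the active peptide, moved oppositely and rose from 93.5 ± 6.69 to 136 ± 7.94 CPM (log2 fold change 0.54 ± 0.07, edgeR adjusted p = 0.000166). Enpep, the aminopeptidase that degrades angiotensin II, fell by 0.32 (SE 0.07), and Hsd11b1, which regenerates active glucocorticoid, by 0.36 (SE 0.08). Angiotensin-converting enzyme, Ace, rose from 294 ± 21.2 to 367 ± 36 CPM (log2 fold change 0.32 ± 0.07, edgeR adjusted p = 0.0138, lost without control 3 or on-drug 3 or 4, edgeR adjusted p 0.00623 to 0.061). Pthlh, the smooth muscle relaxant parathyroid hormone-like peptide, rose from a low level (0.91 ± 0.21, lost without on-drug 3, edgeR adjusted p 0.0112 to 0.0574).

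Among receptors of vasoconstrictors and vasodilators 6 of 63 (9.52%) were higher and 1 (1.59%) lower, against 4.13% and 2.94% over all genes tested. Other fits gave 2 to 3 higher without control 2 or 3 or on-drug 3 or 4, and 10 higher without on-drug 1, and 0 lower without control 2 or 3 or on-drug 1, 2 or 3, and 3 lower without control 4, and 2 lower with the length trend removed. The nucleotide receptor P2ry6 (0.52 ± 0.10) and the receptor of vasoactive intestinal peptide Vipr1 (0.58 ± 0.13) rose, the latter with overlapping groups. The ATP-gated channel P2rx1 had a larger change, from 41 ± 10.3 to 76.1 ± 17.4 CPM, that was less secure (0.89 ± 0.20, lost without control 1, 2 or 3 or on-drug 2 or 3, edgeR adjusted p 0.00483 to 0.0944). In the nitric oxide and cyclic nucleotide list 3 of 49 were higher and 4 lower. The counts became 1 higher without on-drug 3, and 5 higher without on-drug 1, and 7 lower with the length trend removed. Gucy1a3, the alpha subunit of soluble guanylate cyclase, which nitric oxide activates to make cyclic GMP (ENSMUSG00000033910.13, chromosome 3, 82092427 to 82145789, minus strand), was at 287, 272, 235 and 215 CPM in the 4 control libraries and 194, 192, 191 and 186 CPM in the 4 on-drug libraries. The controls spread more than the on-drug libraries, and the groups did not overlap (log2 fold change -0.40 ± 0.07, edgeR adjusted p = 0.00358). The cyclic AMP side gave a rise of the adenylate cyclase Adcy5 (0.34 ± 0.07) and falls of the cyclic AMP-responsive factor Crem (-0.51 ± 0.11) and the phosphodiesterase Pde1c (-1.14 ± 0.24). Of RGS proteins and arrestins 2 of 21 were higher and 1 lower (1 higher without control 1, 2, 3 or 4 or on-drug 2 or 4, and 0 lower without control 1, 2 or 3 or on-drug 3 or 4, and 0 lower with library size alone), with a rise of beta-arrestin 1 (Arrb1, 0.42 ± 0.06), which desensitizes receptors. Of eicosanoid genes 3 of 22 were higher and 1 lower (1 higher without on-drug 3 or 4, and 0 lower without control 2, 3 or 4 or on-drug 3 or 4, and 0 lower with library size alone), with a rise of the prostaglandin carrier Slco2a1 (0.62 ± 0.10).

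Growth factor ligands were called in 2 cases higher (4.55%) and 4 lower (9.09%) of 44, against 4.13% and 2.94% over all genes tested. Other fits gave 1 higher without control 2 or 3 or on-drug 3, and 7 lower without on-drug 1, and 4 higher with library size alone. The falls held 2 neurotrophins. Bdnf, brain-derived neurotrophic factor (ENSMUSG00000048482.14, chromosome 2, 109674700 to 109727007, plus strand), was at 18.7, 17.7, 16.3 and 14.4 CPM in the 4 control libraries and 9.66, 12.6, 9.51 and 13.1 CPM in the 4 on-drug libraries. No on-drug value reached the lowest control (log2 fold change -0.58 ± 0.12, edgeR adjusted p = 0.00926). Ntf3, neurotrophin-3, fell from 53.3 ± 8.27 to 38 ± 4.55 CPM (log2 fold change -0.49 ± 0.10, edgeR adjusted p = 0.00961), with groups that overlap. Their receptors moved with them in part. Ntrk2, which binds Bdnf, fell from 47.9 ± 1.24 to 38.5 ± 2.73 CPM (log2 fold change -0.31 ± 0.06, edgeR adjusted p = 0.00497), while Ntrk3, the receptor of neurotrophin-3, named after its value was seen, fell less securely (-0.28 ± 0.07, lost without control 1 or 2 or on-drug 2, 3 or 4, edgeR adjusted p 0.0109 to 0.101). The vessel-stabilizing ligand Angpt1 fell (-0.76 ± 0.16), and placental growth factor, Pgf, a ligand of the VEGF receptor 1, rose from 5.37 ± 0.368 to 9.94 ± 2.59 CPM (log2 fold change 0.89 ± 0.17, edgeR adjusted p = 0.00531). Among growth factor receptors 9 of 50 were higher and 5 lower. These counts became 3 higher without on-drug 3, and 3 lower without control 1 or 2 or on-drug 2, 3 or 4, and 3 lower with library size alone. The mannose 6-phosphate receptor Igf2r (0.27 ± 0.05), which clears insulin-like growth factor 2, and Fgfr1 (0.32 ± 0.06) rose. The ephrin receptors Ephb1 (-1.06 ± 0.20) and Ephb6 (-0.50 ± 0.10) fell.

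Of 28 genes that bind insulin-like growth factors or belong to the imprinted growth network, 3 were higher and 4 lower. Other fits gave 1 higher without on-drug 3, and 1 to 2 lower without control 2 or 3 or on-drug 3 or 4. The binding proteins were split. Beside the rise of Igfbp2, Igfbp4 rose (0.35 ± 0.08, lost without on-drug 3, edgeR adjusted p 0.00772 to 0.0548) and Igfbp3 fell from 2.81 ± 0.325 to 1.61 ± 0.089 CPM (log2 fold change -0.81 ± 0.18, edgeR adjusted p = 0.0104). Igfbp7, the binding protein with the highest level per kilobase, was at 1852 ± 110.2 CPM in untreated and 2151 ± 156 CPM in treated aortas and did not pass (edgeR adjusted p = 0.0691). The imprinted gene Peg10 (-0.63 ± 0.15, lost without control 3 or on-drug 3, edgeR adjusted p 0.0129 to 0.0574) fell.

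In the TGF-beta and activin list 8 of 40 were higher and 1 lower (13 higher without on-drug 1, and 0 lower without control 2 or 3 or on-drug 4, and 2 lower without control 1, and 3 lower with the length trend removed, and 0 lower with library size alone), and the median log2 fold change was 0.15. The ligand Gdf10 rose from 52.8 ± 5.26 to 77.8 ± 8.55 CPM (log2 fold change 0.56 ± 0.09, edgeR adjusted p = 0.00112), the endothelial co-receptor endoglin, Eng, from 22.9 ± 2.05 to 32.2 ± 1.73 CPM (log2 fold change 0.49 ± 0.09, edgeR adjusted p = 0.00347) and Ltbp4, which holds latent TGF-beta in the matrix, by 0.47 ± 0.09. Of those higher, Ltbp2, Ltbp3, Ltbp4 and Thbs1 also count among the matrix genes. The signal carrier Smad2 (-0.24 ± 0.07, lost without control 2 or 3 or on-drug 1, 3 or 4, edgeR adjusted p 0.0228 to 0.125) fell. In the BMP list 6 of 30 were higher and 2 lower. The counts became 2 to 3 higher without control 2 or 3 or on-drug 3 or 4, and 1 lower without control 1, 2 or 3 or on-drug 2, 3 or 4, and 3 higher with the length trend removed, and 1 lower with library size alone. The procollagen protease Bmp1 (0.33 ± 0.06) and Chrdl1 (0.36 ± 0.07), which binds BMP ligands, rose. Grem1, another BMP antagonist, had a large fitted fall at a very low level, from 1.01 ± 0.752 to 0.171 ± 0.0633 CPM (-2.57 ± 0.58, lost without on-drug 2 or 3, edgeR adjusted p 0.00304 to 0.0566), and the ligand Bmp2 (-0.67 ± 0.18, lost without control 1, 2 or 3 or on-drug 4, edgeR adjusted p 0.0219 to 0.0976) fell.

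Of the Notch pathway 4 of 28 were higher and 0 lower. These counts became 2 higher without on-drug 3, and 7 higher without control 1. These were mainly receptors. Notch3, the receptor of smooth muscle and pericytes, rose from 33 ± 4.48 to 43.6 ± 3.25 CPM (log2 fold change 0.40 ± 0.08, edgeR adjusted p = 0.00781) and Notch1 from 38.8 ± 4.26 to 50.6 ± 4.04 CPM (log2 fold change 0.38 ± 0.08, edgeR adjusted p = 0.00918). The endothelial receptor Notch4 (0.55 ± 0.13, lost without control 3 or on-drug 3, edgeR adjusted p 0.00823 to 0.0613) rose. In the Wnt pathway calls were balanced, with 4 of 51 higher and 4 lower. Other fits gave 2 lower with library size alone. The receptor Fzd4 (0.40 ± 0.07) and the secreted inhibitors Wif1 (0.50 ± 0.09) and Sfrp2 (0.34 ± 0.07) rose, while the inhibitor Frzb (-0.31 ± 0.07), the scaffold Axin1 (-0.26 ± 0.06) and the receptor Fzd5 (-0.38 ± 0.09) fell. Library size as the only scaling ended the call of Axin1 (edgeR adjusted p = 0.0764). The axon guidance genes, which also steer vessels, had 10 of 40 higher and 1 lower (5 to 6 higher without control 3 or on-drug 2, 3 or 4, and 0 lower without control 1, 2 or 3 or on-drug 2, 3 or 4, and 6 higher with the length trend removed, and 0 lower with library size alone), 32 with a positive value. They included the ligands Slit3 (0.50 ± 0.08) and Ntn4 (0.41 ± 0.07) and the semaphorin receptor Plxna4 (0.31 ± 0.06). The netrin receptor Unc5c was at 159 ± 52.3 CPM in untreated and 88.2 ± 13.1 CPM in treated aortas, with groups that overlap (-0.85 ± 0.22, lost without control 1, 2 or 3 or on-drug 2, 3 or 4, edgeR adjusted p 0.00122 to 0.132).

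Stretch-responsive and YAP-TEAD target genes were called higher in 3 of 28 cases and lower in 4. The counts became 5 to 6 higher without control 1 or on-drug 1, and 2 lower without control 2 or 3 or on-drug 1 or 3, and 2 lower with library size alone. The phosphatase Ptpn14 (0.36 ± 0.07), itself a YAP target that restrains YAP, rose, and the LIM protein Ajuba (-0.50 ± 0.11) fell. The 2 targets with the highest level per kilobase did not pass, Ctgf at 0.06 ± 0.12 and Cyr61 at -0.53 ± 0.19 (edgeR adjusted p = 0.131). Of 29 immediate-early genes 1 rose, Ier3 (0.69 ± 0.09), an inhibitor of cell death, and 1 fell, Egr2, while 9 had a positive value. These counts became 2 higher without control 4, and 3 to 4 lower without control 1 or on-drug 3, and 2 higher with library size alone. KLF and related factors gave 2 higher, with Klf13 (0.31 ± 0.07) the more secure, and 1 lower of 24. Other fits gave 1 higher without control 3 or 4 or on-drug 4, and 0 lower without control 2 or 3 or on-drug 4, and 2 lower without control 4, and 0 lower with library size alone. The list of vascular and positional transcription factors had 1 of 47 higher, Gata2 (0.52 ± 0.13, lost without control 1 or 2 or on-drug 3 or 4, edgeR adjusted p 0.0172 to 0.0827), and 0 lower (0 higher without on-drug 3 or 4, and 4 higher without on-drug 1). Both shares as reported were below those over all genes.

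Hox genes, which keep a record of position along the body, were higher in 5 of 27 cases and lower in 0, and 25 had a positive log2 fold change, with a median of 0.37. Hoxa7 was at 16.4, 15.4, 13.5 and 13.6 CPM in the 4 control libraries and 18.2, 20.7, 18.8 and 18.6 CPM in the 4 on-drug libraries. Every on-drug value exceeded every control (log2 fold change 0.37 ± 0.08, edgeR adjusted p = 0.00797). Hoxa7 was the 1 call that remained without on-drug 3, and it shares 20.4% of its exonic bases with an antisense gene of the cluster. The count was 1 to 3 higher without control 1, 2, 3 or 4 or on-drug 2, 3 or 4. Hoxc8 (0.56 ± 0.16, lost without control 1, 2 or 4 or on-drug 1, 2, 3 or 4, edgeR adjusted p 0.0398 to 0.103) and Hoxc4 (0.80 ± 0.23, lost without control 2, 3 or 4 or on-drug 2, 3 or 4, edgeR adjusted p 0.0287 to 0.116) rose too. Glucocorticoid-responsive genes had 5 of 28 higher and 1 lower. The counts became 2 to 3 higher without control 1, 2, 3 or 4 or on-drug 4, and 0 lower without control 2 or on-drug 2, 3 or 4, and 2 lower without on-drug 1, and 0 lower with library size alone. Map3k6, a stress kinase, rose from 28.9 ± 2.19 to 41.1 ± 3.97 CPM (log2 fold change 0.51 ± 0.08, edgeR adjusted p = 0.00134).

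Genes of the integrated stress response and amino acid supply gave 2 of 38 (5.26%) higher and 3 (7.89%) lower, against 4.13% and 2.94% over all genes. These counts became 0 higher without control 2 or 3 or on-drug 2, 3 or 4, and 1 lower without on-drug 2, 3 or 4, and 5 lower without on-drug 1, and 1 higher with the length trend removed, and 1 lower with library size alone. Atf4, the central transcription factor of that response (ENSMUSG00000042406.7, chromosome 15, 80255184 to 80257540, plus strand), was at 149.6, 139, 159 and 143 CPM in the 4 control libraries and 102, 117, 119 and 101 CPM in the 4 on-drug libraries. The on-drug libraries all lay below the controls (log2 fold change -0.43 ± 0.07, edgeR adjusted p = 0.00111). Its partner Cebpb (-0.42 ± 0.11, lost without control 1 or 2 or on-drug 2, 3 or 4, edgeR adjusted p 0.00895 to 0.0727) fell. Chaperones of the endoplasmic reticulum had 2 of 31 higher and 0 lower (0 to 1 higher without control 2 or 3 or on-drug 2, 3 or 4, and 1 higher with the length trend removed), 8 with a positive value, and the calls of Fkbp10 (0.34 ± 0.08, lost without control 3 or on-drug 3, edgeR adjusted p 0.00246 to 0.0695) and Txndc5 (0.24 ± 0.06, lost without control 2 or 3 or on-drug 2, 3 or 4, edgeR adjusted p 0.0132 to 0.0981) were near the threshold. In the translocon and vesicle coat list 5 of 60 were higher and 0 lower (1 to 2 higher without control 3 or on-drug 2, 3 or 4), with Creb3l2, a membrane-bound factor that drives secretory genes, at 0.38 ± 0.07.

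RNA-binding proteins linked to temperature and splicing were lower in 5 of 31 cases and higher in 1. Other fits gave 0 higher without control 3 or on-drug 4, and 2 higher without control 2 or on-drug 1, and 1 to 3 lower without control 2 or 3 or on-drug 2, 3 or 4, and 2 lower with library size alone. The splicing activator Tra2a fell from 27.4 ± 3.19 to 19.4 ± 2.25 CPM (log2 fold change -0.50 ± 0.11, edgeR adjusted p = 0.0089). Clk1, a kinase that phosphorylates splicing factors, fell from 151 ± 12.5 to 120.2 ± 11.4 CPM (log2 fold change -0.33 ± 0.08, edgeR adjusted p = 0.0143, lost without on-drug 3, edgeR adjusted p 0.00704 to 0.0536), and its relative Clk4 (-0.29 ± 0.08, lost without control 2 or 3 or on-drug 2, 3 or 4, edgeR adjusted p 0.019 to 0.11) fell. The splicing factor Srsf5 moved the other way (0.38 ± 0.09, lost without control 3 or on-drug 4, edgeR adjusted p 0.0024 to 0.0571).

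Cytosolic ribosomal protein genes were lower in 14 of 81 cases and higher in 0, and 7 had a positive log2 fold change, with a median of -0.15. These calls were small and insecure. The count was 0 to 7 lower without control 3 or 4 or on-drug 2, 3 or 4, and 22 to 25 lower without control 1 or 2. With library size as the only scaling it was 4, and with the summed skeletal muscle genes as a covariate 0. Removing the length trend left 14. Among them were Rpl9 (-0.31 ± 0.07), Rps3a1 (-0.30 ± 0.07), Rps21 (-0.26 ± 0.06) and Rpl38 (-0.23 ± 0.06). Each lost its call without control 3 or on-drug 3 or 4 and some of them also without control 4, with edgeR adjusted p of 0.0108 to 0.0926 over these fits. Ribosomal protein genes have many pseudogene copies, and reads that map to several places were counted at each. Among translation factors and ribosome assembly genes 7 of 50 were lower and 3 higher. The counts became 0 higher without control 2 or 3 or on-drug 2, 3 or 4, and 3 lower without control 3 or on-drug 3 or 4, and 0 higher with the length trend removed, and 4 lower with library size alone. The core protein of small nucleolar ribonucleoproteins Nop58 fell from 25.8 ± 2 to 19.1 ± 1.61 CPM (log2 fold change -0.43 ± 0.08, edgeR adjusted p = 0.0039), as did the helicase Eif4a2 (-0.33 ± 0.07). Proteasome subunits gave 3 of 40 lower and 0 higher. These counts became 0 to 1 lower without control 2 or 3 or on-drug 2, 3 or 4, and 5 lower without on-drug 1, and 0 lower with library size alone.

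Cholesterol genes were lower in 3 of 30 cases and higher in 1. Other fits gave 2 to 3 higher without control 1 or on-drug 1, and 5 lower without control 3 or on-drug 1. Cyp51, which demethylates lanosterol (ENSMUSG00000001467.5, chromosome 5, 4081145 to 4104746, minus strand), was at 40.6, 38.2, 33 and 28.4 CPM in the 4 control libraries and 24.6, 21.7, 16.4 and 15.7 CPM in the 4 on-drug libraries. Both groups spread over a wide range and did not overlap (log2 fold change -0.83 ± 0.17, edgeR adjusted p = 0.0158). Msmo1, which acts later in the same pathway, fell as well (-0.51 ± 0.13, lost without control 1 or 2 or on-drug 2, 3 or 4, edgeR adjusted p 0.000223 to 0.0884). Abca1, which exports cholesterol from cells, rose from 67.4 ± 5.11 to 95.4 ± 12.7 CPM (log2 fold change 0.50 ± 0.08, edgeR adjusted p = 0.00178). Fatty acid synthesis gave 1 higher and 1 lower of 31. The counts became 0 higher without control 2 or 3 or on-drug 2, 3 or 4, and 2 higher without on-drug 1, and 0 lower without on-drug 4, and 0 higher with the length trend removed. Scd1, one of its most abundant members per kilobase, was at 932 ± 514 CPM in untreated and 568 ± 112 CPM in treated aortas, a spread too wide for a call (edgeR adjusted p = 0.674). Of fatty acid oxidation genes 2 of 40 were higher, the uncoupling protein Ucp2 (0.51 ± 0.09) and Cpt1c (0.41 ± 0.09), and 0 lower.

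Nuclear genes for subunits of oxidative phosphorylation were lower in 8 of 78 cases and higher in 0, and 4 had a positive value, with a median of -0.17. The complex I subunit Ndufb3 fell from 47.3 ± 1.26 to 39.7 ± 2.31 CPM (log2 fold change -0.25 ± 0.06, edgeR adjusted p = 0.016, lost without on-drug 3, edgeR adjusted p 0.00567 to 0.0593), as did Ndufb5 (-0.32 ± 0.08, lost without on-drug 3, edgeR adjusted p 0.0151 to 0.0521). The count was 0 to 5 lower without control 3 or 4 or on-drug 2, 3 or 4, and 14 lower without on-drug 1. With the length trend removed it was 15, in genes with a median exonic length of 1542 bases, and with library size as the only scaling 3. The 13 messenger RNAs of the mitochondrial genome, which encode further subunits of the same complexes, had 0 higher and 0 lower, with 10 positive values. Their summed levels overlapped, at 15680 to 18262 CPM in untreated and 14638 to 16939 CPM in treated aortas. The abundant mt-Co3 and mt-Co1 had negative log2 fold changes, -0.18 and -0.09, and did not pass. Mitochondrial ribosome and import genes gave 5 of 52 lower and 0 higher (2 to 3 lower without control 3 or 4 or on-drug 2, 3 or 4, and 10 lower without control 1, and 3 lower with library size alone), with Mrps22 (-0.40 ± 0.08) and Mrpl42 (-0.31 ± 0.06) the falls that held without any 1 library.

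Of glycolysis and hypoxia genes 5 of 42 were higher and 1 lower. These counts became 0 to 2 higher without control 2 or 3 or on-drug 3 or 4, and 0 lower without on-drug 2, 3 or 4, and 2 lower without control 1, and 3 higher and 2 lower with the length trend removed. The lactate exporter Slc16a3 (0.48 ± 0.11, lost without control 3 or on-drug 3, edgeR adjusted p 0.00537 to 0.061) rose, and Epas1 (0.32 ± 0.08, lost without control 2 or 3 or on-drug 3 or 4, edgeR adjusted p 0.014 to 0.0766), the hypoxia factor HIF-2 alpha, rose. Redox, NRF2 and metallothionein genes gave 2 higher (4.08%) and 3 lower (6.12%) of 49, against 4.13% and 2.94% over all genes tested. Other fits gave 0 to 1 higher without control 3 or on-drug 3 or 4, and 1 lower without on-drug 3 or 4. Maob, which oxidizes biogenic amines, fell from 18.2 ± 1.65 to 14.1 ± 1.24 CPM (log2 fold change -0.37 ± 0.08, edgeR adjusted p = 0.00984).

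Genes of mitosis and DNA replication were higher in 5 of 54 cases and lower in 0 (2 higher without on-drug 3), with 41 positive values and a median of 0.23. Beside Ccnd1, the kinetochore protein Cenpf rose from a low level, from 1.59 ± 0.389 to 3.16 ± 0.568 CPM (log2 fold change 0.98 ± 0.21, edgeR adjusted p = 0.00827), and the spindle factor Tpx2 (0.72 ± 0.17, lost without control 4 or on-drug 3, edgeR adjusted p 0.0158 to 0.0746) rose. The replication clamp Pcna was at 43.1 ± 2.98 CPM in untreated and 39.6 ± 2.55 CPM in treated aortas and did not pass (log2 fold change -0.12 ± 0.06, edgeR adjusted p = 0.282). Among chromatin regulators 6 of 62 were higher and 1 lower. The counts became 2 to 3 higher without control 3 or 4 or on-drug 2, 3 or 4, and 11 higher without control 1, and 2 lower without control 4. The histone demethylase Kdm4a (0.30 ± 0.06) rose and Eed (-0.38 ± 0.07), a core subunit of Polycomb repressive complex 2, fell. These genes are long as well (median exonic length 10750 bases), and 3 were higher with the length trend removed.

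**Figure D4:**
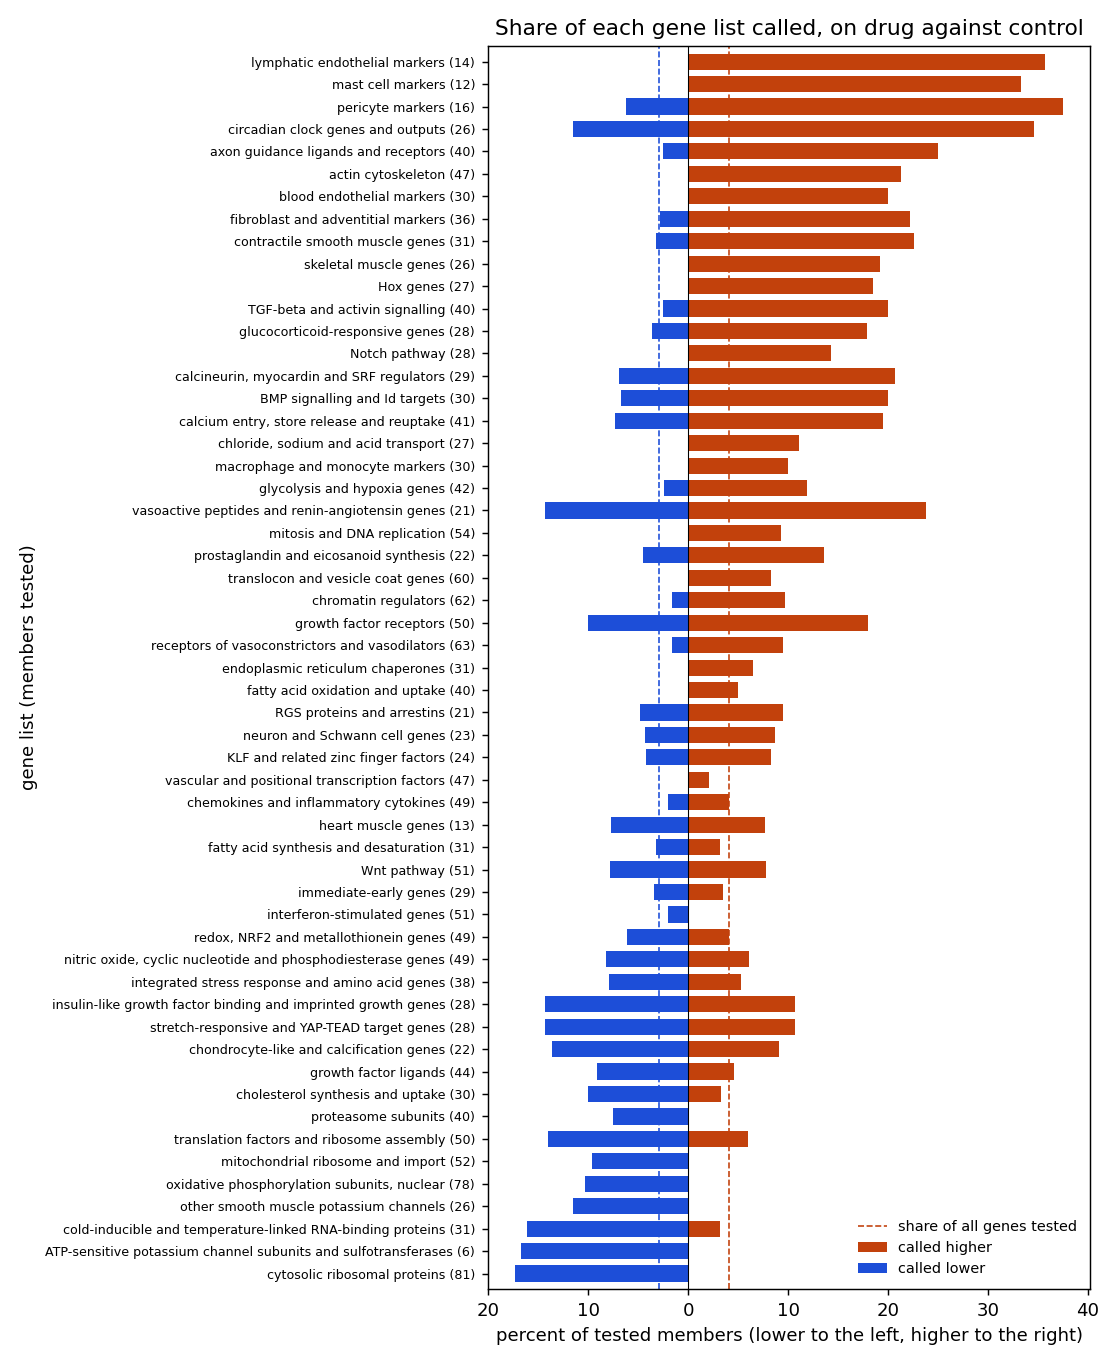
For each gene list with at least 1 called member, other than matrix genes and heat-shock chaperones, bars give the percent of tested members called higher (orange, to the right) and lower (blue, to the left), with the number tested in brackets and dashed lines at the shares over all genes tested, 4.13% higher and 2.94% lower. Lymphatic, pericyte, mast cell and clock lists reach the farthest to the right, and of the lists shown ribosomal protein genes reach the farthest to the left. The dashed lines do not allow for expression level.

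The labelled tissue was checked against its markers. Contractile smooth muscle genes summed to 46387 CPM or more in every library, against at most 8713 CPM for fibroblast and 2413 CPM for blood endothelial markers. Lymphatic endothelial markers were higher in 5 of 14 cases and lower in 0, with 13 positive values, and the count stayed at 5 whichever library was left out. Prox1, the transcription factor that sets lymphatic identity (ENSMUSG00000010175.13, chromosome 1, 190118035 to 190170714, minus strand), was at 0.451, 0.351, 0.471 and 0.351 CPM in the 4 control libraries and 1.06, 0.725, 1.17 and 1.17 CPM in the 4 on-drug libraries. Its level was low throughout, and all on-drug values were above all controls (log2 fold change 1.35 ± 0.26, edgeR adjusted p = 0.00468). The receptor Flt4, which binds the lymphatic growth factor VEGF-C, rose from 4.83 ± 1.16 to 9.18 ± 2.12 CPM (log2 fold change 0.92 ± 0.17, edgeR adjusted p = 0.00488) and the hyaluronan receptor Lyve1 from 48 ± 9.35 to 78.1 ± 4.47 CPM (log2 fold change 0.70 ± 0.13, edgeR adjusted p = 0.00936). Thy1, which fibroblasts also express, rose from 21.1 ± 1.59 to 33.2 ± 2.53 CPM (log2 fold change 0.66 ± 0.09, edgeR adjusted p = 0.00046), and Pdpn, named after its value was seen, by 0.38 ± 0.08.

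Blood endothelial markers were higher in 6 of 30 cases and lower in 0, with summed levels of 1829 to 2019 CPM in untreated and 2177 to 2413 CPM in treated aortas. Von Willebrand factor, Vwf (ENSMUSG00000001930.17, chromosome 6, 125546774 to 125686679, plus strand), was at 176, 165, 168 and 171 CPM in the 4 control libraries and 231, 236, 287 and 266 CPM in the 4 on-drug libraries. The groups were clear of each other (log2 fold change 0.58 ± 0.07, edgeR adjusted p = 0.000142). The phosphatase Ptprb (0.44 ± 0.07) and Sox18 (0.89 ± 0.17), a factor of vessel growth named after its value was seen, rose, while the abundant marker Pecam1 was at 0.27 ± 0.08 and missed the threshold (edgeR adjusted p = 0.0621). Of the endothelial genes named in other lists, Eng, Notch1 and Flt4 were higher on drug, as these sums were, and Edn1 was lower, and the part of the sums in those results was not tested. Pericyte markers were higher in 6 of 16 cases and lower in 1, Kcnj8 (2 to 3 higher without control 2, 3 or 4 or on-drug 2, 3 or 4, and 0 lower without control 1, 2 or 3 or on-drug 1, 2 or 4, and 0 lower with library size alone), with the proteoglycan Cspg4 (NG2) rising from 479 ± 47.7 to 685 ± 102 CPM (log2 fold change 0.52 ± 0.10, edgeR adjusted p = 0.00486). Rgs5, the pericyte gene with the highest level per kilobase, was at 829 ± 88.4 CPM in untreated and 1078 ± 58.8 CPM in treated aortas and did not pass (log2 fold change 0.38 ± 0.12, edgeR adjusted p = 0.0643).

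Fibroblast and adventitial markers were higher in 8 of 36 cases and lower in 1, Gsn. These counts became 3 to 5 higher without control 2 or on-drug 2, 3 or 4, and 2 lower without on-drug 1, and 4 higher with the length trend removed. Their summed levels overlapped, at 7627 to 8713 CPM in untreated and 7614 to 7875 CPM in treated aortas. Islr, a secreted marker of mesenchymal cells, rose from 108 ± 9.74 to 161 ± 8.33 CPM (log2 fold change 0.57 ± 0.07, edgeR adjusted p = 0.000128) and the stromal surface protein Cd248 (0.57 ± 0.10) rose with it, whereas decorin, Dcn, an abundant member, was at -0.09 ± 0.08 (edgeR adjusted p = 0.571). Neuron and Schwann cell genes gave 2 of 23 higher and 1 lower (1 higher without control 2, 3 or 4 or on-drug 2 or 4, and 2 lower without control 2 or on-drug 1, and 2 lower with the length trend removed), with 9 positive values and a median of -0.13. Among the calls was Uchl1, a neuronal deubiquitinase, rising from 54 ± 0.688 to 74.2 ± 3.02 CPM (log2 fold change 0.46 ± 0.05, edgeR adjusted p = 8.24e-05). Among chondrocyte-like and calcification genes 2 of 22 were higher and 3 lower. Other fits gave 1 higher without on-drug 3, and 0 to 1 lower without control 3 or on-drug 2, 3 or 4, and 1 lower with library size alone. Alpl, alkaline phosphatase, which removes the mineralization inhibitor pyrophosphate, rose from 4.33 ± 0.554 to 8 ± 1.37 CPM (log2 fold change 0.88 ± 0.13, edgeR adjusted p = 0.000668). Enpp1, which makes pyrophosphate, went the other way (-0.22 ± 0.06, lost without control 3 or on-drug 2 or 3, edgeR adjusted p 0.0276 to 0.0867).

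Of 26 skeletal muscle genes 5 were higher and 0 lower, but only 13 had a positive value, with a median of 0.07. Their summed level was 193 to 221 CPM in untreated and 270.2 to 332 CPM in treated aortas, without overlap. Most of that sum came from Casq1, a calcium store protein, which was at 106, 92.9, 100.4 and 106 CPM in the 4 control libraries and 139, 175, 169.8 and 155 CPM in the 4 on-drug libraries, and from Tcap. Casq1 rose in all 4 on-drug libraries above all controls (log2 fold change 0.66 ± 0.09, edgeR adjusted p = 0.00041), and nebulin, Neb, rose from 3.27 ± 0.616 to 6.61 ± 0.621 CPM (log2 fold change 1.01 ± 0.16, edgeR adjusted p = 0.00114). The defining sarcomere genes, named here after their values were seen, were low in both groups. Acta1 was at 1.11 ± 0.482 CPM in untreated and 1.05 ± 0.203 CPM in treated aortas (edgeR adjusted p = 0.938), and the skeletal myosins Myh1, Myh2 and Myh4 each stayed at or below 0.431 CPM in every library. Ckm, the muscle creatine kinase, rose from 2.42 ± 0.23 to 4 ± 0.629 CPM (log2 fold change 0.72 ± 0.15, edgeR adjusted p = 0.00824). With the summed log2 levels of this list as a covariate, 497 genes were higher and 312 lower over the whole table. The summed CPM of the list separated the groups. Whether its summed log2 levels did, and whether that fit thereby removed part of the group difference, was not tested. Heart muscle genes gave 1 of 13 higher and 1 lower, Pln (0 higher without control 2 or 3 or on-drug 3 or 4), with Myl7, an atrial light chain, at 2.76 ± 1.3 CPM in untreated and 2.19 ± 1.49 CPM in treated aortas.

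Mast cell markers were higher in 4 of 12 cases and lower in 0, all 12 had a positive value, and summed levels were 15 to 21.3 CPM in untreated and 25.4 to 38.3 CPM in treated aortas. The count was 0 to 2 higher without control 2, 3 or 4 or on-drug 1, 3 or 4. Mcpt4, a chymase of connective tissue mast cells, was at 2.37 ± 0.557 CPM in untreated and 4.84 ± 0.956 CPM in treated aortas (1.03 ± 0.27, lost without control 2, 3 or 4 or on-drug 3 or 4, edgeR adjusted p 0.0308 to 0.108). Macrophage markers gave 3 of 30 higher and 0 lower (1 higher without control 3 or 4 or on-drug 1, 2 or 3, and 1 higher with the length trend removed), with the integrin Itgam at 0.57 ± 0.12. Of T, B and natural killer cell markers 0 of 28 were called higher and 0 lower, and of granulocyte and dendritic cell markers 0 and 0 of 18. Chemokines and inflammatory cytokines gave 2 higher and 1 lower of 49 (1 higher without control 2 or on-drug 2 or 3, and 0 lower without control 4 or on-drug 2, 3 or 4, and 3 lower without control 1), with Il16, a chemoattractant of T cells, at 0.39 ± 0.07. Of interferon-stimulated genes 0 of 51 were higher and 1 lower, with 0 positive values and a median of -0.41. Their summed level was 2018 and 2125 CPM in controls 1 and 2 but 1574 and 1566 CPM in controls 3 and 4, within the 1475 to 1636 CPM of the on-drug libraries. Bst2, the antiviral protein tetherin, was the 1 call (-0.37 ± 0.11, lost without control 1, 2 or 3 or on-drug 1, 2, 3 or 4, edgeR adjusted p 0.0148 to 0.117). The count was 0 lower without control 1 or 2 or on-drug 1, 2, 3 or 4, and 2 to 8 lower without control 3 or 4, and 0 lower with library size alone.

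Erythroid genes had 0 higher and 0 lower of 13, with 0 positive values. Their summed level was 4965 to 20641 CPM in untreated and 3915 to 6047 CPM in treated aortas. Control 4 held the highest, and the other 3 controls, at 4965 to 8209.6 CPM, overlapped the on-drug libraries. Without control 4, 759 genes were higher and 704 lower over the whole table. Fat cell and thermogenic genes had 0 and 0 of 28 called, with summed levels of 1761 to 2819 CPM in untreated and 2183 to 2944 CPM in treated aortas that overlapped. Mesothelial and epithelial genes had 0 and 0 of 13, at a summed level of at most 27.9 CPM. For these marker lists, their part in the changes of other genes was not tested.

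**Figure D5:**
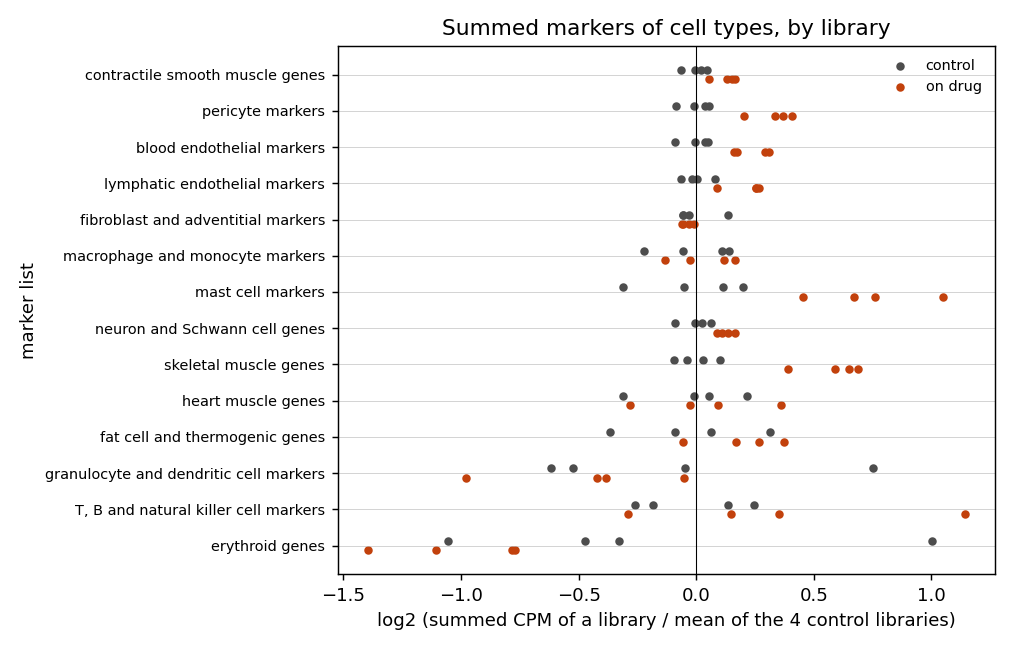
Summed CPM of each marker list in each library (grey control, orange on drug), as the log2 ratio to the mean of the 4 controls. The groups do not overlap for contractile, pericyte, blood endothelial, lymphatic, mast cell, neuron and skeletal muscle lists. They overlap for fibroblast, macrophage, heart, fat, granulocyte and lymphocyte lists, and 1 control library stands out in the erythroid list. The margin between highest control and lowest on-drug library is narrow for contractile (50092 and 50436 CPM), lymphatic (984.7 and 991.6) and neuron lists (656.6 and 667.1). Of 23 neuron and Schwann cell genes 9 have a positive log2 fold change.

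Calls were spread unevenly over the annotated gene classes, over gene length and over expression level. Protein-coding genes were called higher in 5.61% and lower in 3.77% of 16162 cases. Over all genes tested these shares were 4.13% and 2.94%. Processed pseudogenes gave 6 higher (0.252%) and 38 lower (1.59%) of 2385. Small nucleolar RNAs gave 0 higher and 5 lower (1.75%) of 285, and both classes lay below the shares over all genes in each direction. Long intergenic RNAs gave 20 higher (2.09%) and 16 lower (1.67%) of 957. Antisense RNAs, which this counting cannot separate from the genes they overlap, gave 32 (2.2%) and 13 (0.895%) of 1452. Over 4 equal classes of protein-coding genes, from the shortest to the longest, the share called higher was 2.5%, 4.16%, 6.81% and 8.98%. The share called lower was 2.97%, 4.9%, 3.64% and 3.59%. Over 4 such classes by mean level, from lowest to highest, the share called higher was 1.31%, 5.12%, 6.06% and 9.95%. For calls lower it was 1.04%, 2.77%, 5.1% and 6.19%. The gene lists stand beside the shares over all genes and were not compared with genes of like level. With the length trend removed in each library, 749 genes were higher and 1002 lower. Gene length moved with the direction of the calls. Removing its trend lowered the median log2 fold change of the longest class from 0.032 to -0.015. It lowered that of the shortest class too, from -0.033 to -0.042. The counts of that fit thus hold a general downward shift and cannot isolate length. The part of length in the changes of long genes (actin regulators, chromatin) and short ones (ribosomal and respiratory chain subunits) was not tested.

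Because strand was not used and reads over several genes were counted at each, a gene that overlaps another cannot be told apart from it in the shared bases. Beside the cases already named, the genes described as changed that share at least 10% of their exonic bases with another gene model were Bdnf (14.4%), Bhlhe41 (19%), Cebpb (20.7%), Ckm (15.5%), Dbp (18%), Fzd5 (17.8%), Il16 (15.3%), Itgam (68.7%), Ndufb5 (12.3%), Sfrp2 (16.1%), Stac (11.3%) and Uchl1 (18.1%), and their values are uncertain to that extent.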

How the data were processed

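RNA of 12 aortic samples was sequenced, and the 8 of the control and on-drug groups are compared here. Raw read counts per gene were made with featureCounts 1.4.6-p3 on reads mapped with a STAR 2.5.3a index of GENCODE M13, per the file headers, with multi-mapped reads and reads over several genes counted at each, duplicates ignored and no strand option. The build was GRCm38, per the submitters' processing notes, which also name DESeq2. A deposited table of log2 values of the authors equals log2 of the count over the DESeq2 size factor plus 1, and was used for gene symbols, types and coordinates. A second deposited table repeats part of it and was not used.

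Counts were tested with edgeR 4.0.16 (R 4.3.3): filterByExpr (minimum count 10, minimum total 15), TMM scaling and a robust quasi-likelihood fit of 3 groups over 12 libraries, with the contrast on drug minus control and Benjamini-Hochberg adjustment, two-sided. Standard errors are the log2 fold change over the square root of F. The procedure was tested on simulated counts. Libraries held 41524501 to 109423243 counts. Alternatives were DESeq2 1.42.0, limma 3.58.1 (voom), other scalings, filters and sample sets, a length offset, covariates and a replicate block. Same-numbered samples did not deviate together (r of -0.076 to 0.020).

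Genes named were the potassium channel subunits and Sult1a1, the 12 largest rises and falls and the 10 smallest adjusted p in each direction (mean log2 CPM at or above 1, groups without overlap, no unnamed models, matrix or heat-shock genes), the 8 called genes highest per kilobase in each direction, and, per gene list, up to 3 called members in each direction and the 2 highest per kilobase. Those printed are drawn from these, and any other is said to be chosen after its values were seen. The comparison, the members and the lists were chosen with earlier results of these data known. A result that the naming rule picked is not reported here. For the replicate block, the labels do not say that a number marks a shared animal, cage or day.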

Additional observations from a re-analysis of the deposited data

Results flagged for a closer look

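For the genes named in the text, each group of 4 libraries was searched for 1 library whose gap to the nearest other exceeded Dixon's 95% critical value of the group's range. Of 428 groups 24 met this, and chance alone gives about 1 in 20. The comparisons below give the library's value and the range of the other 3 of its group.

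Control 2 lay above the rest of its group for Rbm12b1 at 28.1 CPM against 21 to 22.1. Control 3 lay above the rest of its group for Enpp1 at 44.5 CPM against 40.6 to 41.1. Control 4 lay above the rest of its group for Coro2a at 1.61 CPM against 1.03 to 1.11, Cry2 at 20.1 CPM against 14.5 to 14.9, Islr2 at 3.2 CPM against 1.66 to 1.76, Ndufb5 at 62 CPM against 50.5 to 52.3, P2rx1 at 56.4 CPM against 34.7 to 36.8 and Stk32a at 3.1 CPM against 2.92 to 2.95. On-drug 1 lay above the rest of its group for Msmo1 at 26.6 CPM against 17.5 to 18.2. On-drug 2 lay above the rest of its group for Frzb at 43.1 CPM against 38.9 to 39.1, Myh4 at 0.431 CPM against 0.23 to 0.251, Ntf3 at 44.7 CPM against 34.9 to 36.5 and Synpo2 at 546 CPM against 515 to 517. On-drug 3 lay above the rest of its group for Ckm at 4.93 CPM against 3.62 to 3.78, Cpt1c at 14.4 CPM against 13.7 to 13.8 and Rbm12b2 at 14.8 CPM against 6.33 to 7.07. On-drug 4 lay above the rest of its group for Per3 at 55.5 CPM against 35.3 to 38.6 and Tcap at 108 CPM against 72.6 to 73.8. Control 2 lay below the rest of its group for Myh2 at 0.0458 CPM against 0.218 to 0.244. On-drug 1 lay below the rest of its group for Ahnak at 7029 CPM against 7266 to 7293 and Cry2 at 19.6 CPM against 28.1 to 28.9. On-drug 3 lay below the rest of its group for Abcc9 at 456 CPM against 496 to 502. On-drug 4 lay below the rest of its group for Nfil3 at 3.88 CPM against 6.45 to 6.66 and S100a6 at 252 CPM against 279 to 284.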

How the results depend on the processing

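Against 1018 higher and 725 lower as reported, library size as the only scaling gave 1038 higher and 388 lower, DESeq2 1459 higher and 1353 lower, the 8 libraries fitted alone 684 higher and 463 lower and the skeletal muscle covariate 497 higher and 312 lower. With 1 library left out, 472 to 1330 genes were higher and 323 to 960 lower. The genes called at least 2-fold higher ranged from 36 to 74 and those lower from 46 to 120 over these fits. The cause of these differences was not tested. The other settings, DESeq2 size factors, no filter on low counts, a CPM of at least 1 in 4 libraries, limma-voom, the non-robust fit, the fat cell covariate and the removed length trend, kept both counts within 1.5 times. A CPM of at least 1 in 4 libraries, which tests 17255 genes, lowered the 2-fold counts to 39 higher and 40 lower. The fit with the replicate number as a block (replicate block) gave 925 higher and 633 lower, sharing 1438 calls with the reported one, but the numbers do not pair the samples. Of 252 called genes that the naming rule or a later choice picked, 137 kept their call in all 8 fits without 1 library and 143 under all 12 other settings. Over all 362 genes so picked, called or not, 0 of 7226 values changed sign while called. The shallowest library, on-drug 3 with 41524501 counts, was also the one whose absence lowered the count of higher genes the most.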
